A study of Mus musculus with 4 samples.

Results

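The 10 genes described here encode purinergic receptors and nucleotide-cleaving enzymes, and are called the purinergic genes below. They were followed in HT-22 cells, an immortalized mouse hippocampal line, with and without induction of Pja2, a gene for a RING-type ubiquitin ligase. They are the ATP-gated channel genes P2rx3, P2rx4, P2rx5, P2rx6 and P2rx7, the nucleotide receptor genes P2ry2 and P2ry14, the adenosine receptor gene Adora2b, and the nucleotide-cleaving enzyme genes Entpd5 and Nt5e. They were selected by symbol from the deposited expression table, in which all 10 had a row among 24689 genes. The control group was 2 libraries of cells that the characteristics call uninduced and the titles call WT. The induced group was 2 libraries of cells labelled as induced for Pja2 and titled Pja2-pb, which the design text also writes as Pja2/+. All cells were HT-22 at passages 21 to 24, and no other treatment or allele is named. The labels do not say how Pja2 was induced, whether the controls carry the same construct, or whether the replicates were grown separately, so the spread that p-values rest on may be technical.

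Extracellular ATP and its breakdown products act on families of receptors that differ in ligand and mechanism. P2X receptors are trimeric cation channels opened by ATP, and adenosine receptors act on cyclic AMP. P2Y receptors are G protein-coupled receptors for nucleotides such as ATP, UTP and UDP, or for UDP-glucose. Ectonucleotidases such as the NTPDases remove phosphates from the nucleotides, and the ecto-5'-nucleotidase encoded by Nt5e, also called CD73, makes adenosine from AMP. The series title names an axis of P2rx3 and P2rx7, and the comparison below asks how the transcripts of these receptors and enzymes differ between induced and control cells.

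Libraries held 25787452 to 35262653 recovered reads, and 100% of the deposited values were whole reads times 1 factor per library, within a tolerance of 0.01 reads. Values called normalized reads are those reads times that factor (0.927 to 1.26), and CPM scales reads to the library total, so that 1 CPM stood for 25.8 to 35.3 reads. Pja2 itself had 6167 and 5881 normalized reads in the controls, against 54830 and 54244 in the induced libraries. Of 12 neuronal markers 6 had a row, and Tubb3 and Camk2a were the 2 with a mean of at least 1 CPM, while Syt1, Nefl, Slc17a7 and Prox1 stayed at or below 0.271 CPM. Of 8 fibroblast markers 7 reached 1 CPM, with 9771 to 11580 CPM summed over the list. Only Col3a1 and Dcn passed the test described below, both lower in the induced cells. Col1a1, Col1a2, Pdgfra and Pdgfrb overlapped between the groups, and Thy1 was lower in both induced libraries. Of 8 microglial and macrophage markers 4 reached 1 CPM, led by Tmem119. The list summed to 65.8 to 78.6 CPM in the controls and 65.3 to 66.0 in the induced cells. This sum was mostly Tmem119, which was lower in both induced libraries. The other markers that reached 1 CPM, Aif1, Cd68 and Trem2, were higher in both induced libraries than in both controls. Trem2 had 6.51 and 5.42 CPM in the controls, against 10.97 and 8.62 in the induced libraries. No marker of this list passed the test described below. The pan-leukocyte marker Ptprc had at most 0.194 CPM. Markers of astrocytes reached 1 CPM in 2 of 5 genes, of oligodendrocytes in 1 of 2, of T cells in 0 of 3 and of endothelial cells in 0 of 4. The neuronal label therefore rests on few of the markers examined, and the part of any such difference in the results was not tested.

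Among the 9 of these genes abundant enough to test, P2rx7 and Entpd5 rose in induced cells, each about as much as a doubling of transcript, and 0 fell. P2rx7, the channel gene linked to pore formation and inflammasome activation, rose 2.06-fold, and Entpd5, which encodes a nucleoside diphosphatase that works in the lumen of the endoplasmic reticulum, rose 2.22-fold. P2ry14, P2rx6 and P2rx3 also had group means that stood apart without passing the test, and P2rx4, P2rx5, P2ry2 and Adora2b had group means within 10% of one another. Nt5e was below the expression filter of a mean of 1 CPM, at 0.239 CPM, and the lowest gene to pass the filter was P2rx6 at 1.20 CPM. The test was limma on log2 values with Benjamini-Hochberg adjustment over 13276 genes at a threshold of 0.05. By it 2.08% of all tested genes were higher and 1.34% lower, 3.42% in all. The 10 genes were chosen with earlier results of these data known, so their share of calls cannot be weighed against these percentages. The median log2 fold change was 0.06 over the 9 genes and 0.00 over all tested genes, with 5 of the 9 above 0 and 4 below. The libraries of the groups did not overlap for 7 of the 9, induced higher in 4 and lower in 3, against a background of 51.3% of tested genes (26.2% higher and 25.1% lower).

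**Figure D1:**
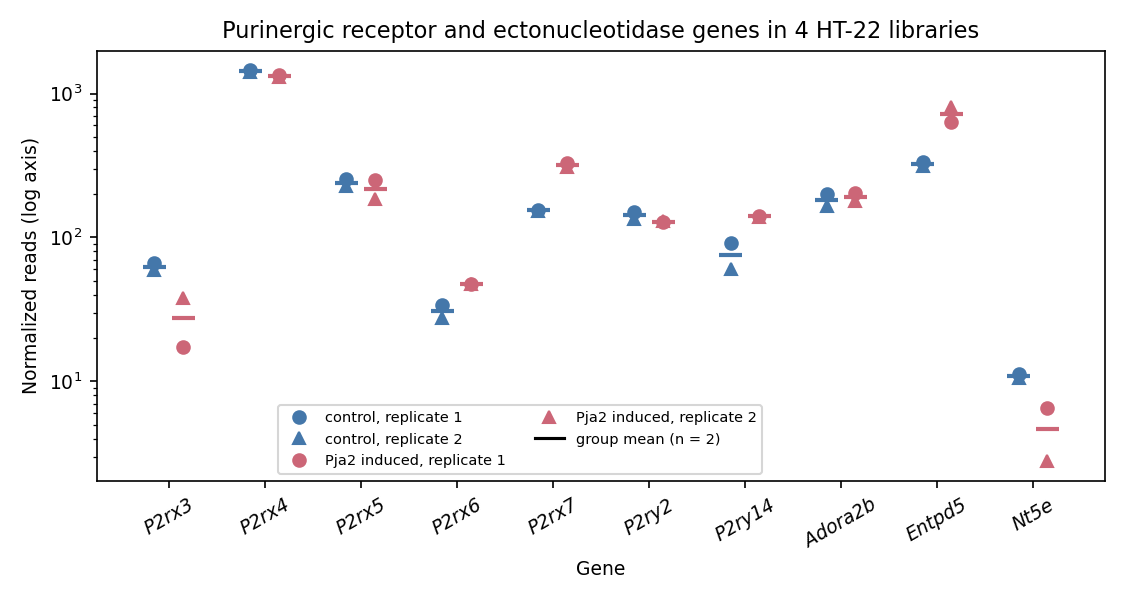
Normalized reads (vertical log axis) of the 10 genes in each of the 4 libraries, with controls in blue, Pja2-induced libraries in red, circles for replicate 1, triangles for replicate 2 and lines at the group means (n = 2). P2rx7 and Entpd5 lie higher in both induced libraries than in both controls, and the induced libraries of P2rx3 lie apart from each other at 17.4 and 38.0.

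**Figure D2:**
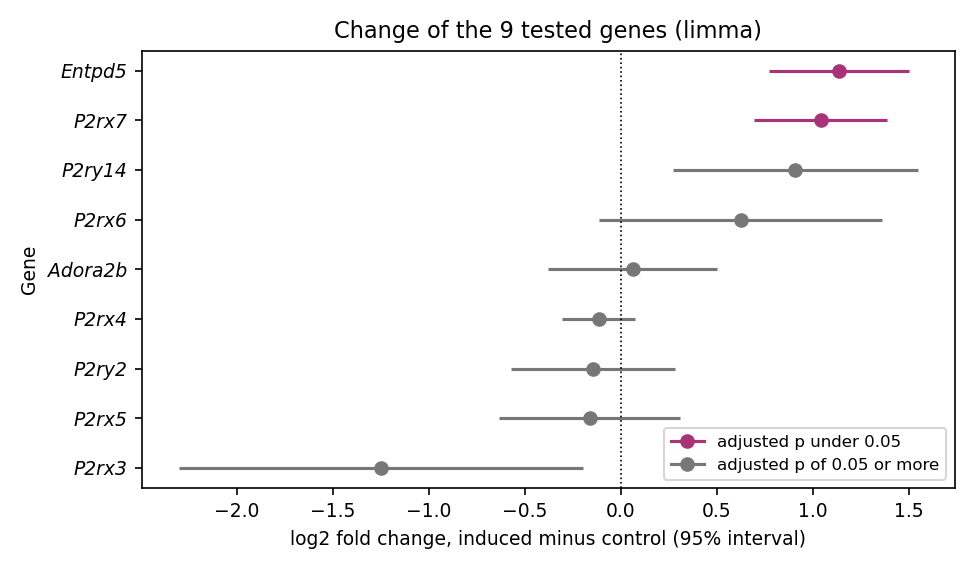
Log2 fold change (horizontal axis, induced minus control) of the 9 tested genes with 95% intervals from limma. Entpd5 and P2rx7, in purple, pass the adjusted threshold of 0.05, with intervals of 0.77 to 1.50 and 0.69 to 1.39.

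P2rx7 (ENSMUSG00000029468, chromosome 5) had 155 and 154 normalized reads in the controls, against 329 and 307 in the induced libraries, from 123 and 146 reads against 303 and 331. The controls lay within 1 normalized read of each other, and both induced libraries were far above them. The group means were 154 ± 0.645 and 318 ± 15.9 (SD, n = 2). In limma the log2 fold change was 1.04 (SE 0.14, 95% interval 0.69 to 1.39, adjusted p = 0.0249), which placed P2rx7 at percentile 99.0 of all tested genes. The change in log2 was 0.99 to 1.09 whichever library was left out, but the call then ended each time (limma adjusted p from 0.0607 to 0.0964), and it ended without the expression filter (0.0520). The microRNA gene Mir8115 lies in an exon of P2rx7 on the same strand and had mean normalized reads of 1.16 and 1.01 in the control and induced groups.

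Entpd5 (ENSMUSG00000021236, chromosome 12) had 337 and 315 normalized reads in the controls, against 636 and 810 in the induced libraries. The induced replicates differed more from each other than the controls did, and both were above both controls. Its means were 326 ± 15.6 and 723 ± 123 (SD, n = 2), with a limma log2 fold change of 1.14 (SE 0.15, 95% interval 0.77 to 1.50, adjusted p = 0.0226). Leaving out control replicate 1, control replicate 2 or induced replicate 2 ended the call (limma adjusted p = 0.0523, 0.0600 and 0.0580), whereas it held without induced replicate 1 (0.0152). It also ended without the filter (0.0520) and without a trend in the variance prior (0.0771). Entpd5 shares no exon base with another gene in the GENCODE M21 annotation.

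P2rx3 (ENSMUSG00000027071, chromosome 2), the channel gene best known from sensory neurons, had 66.6 and 59.0 normalized reads in the controls, against 17.4 and 38.0 in the induced libraries. Both induced libraries were below both controls, but they differed from each other by 1.08 on the log2 scale. The means were 62.8 ± 5.42 and 27.7 ± 14.6 (SD, n = 2), a ratio of 0.441. On the log2 scale the limma estimate was -1.25 (SE 0.43, 95% interval -2.30 to -0.20), with an adjusted p of 0.201 and an unadjusted p of 0.0274 in limma. The estimate was -0.71 without induced replicate 1 and -1.79 without induced replicate 2. It rested on 109 control and 57 induced reads, and counting error alone gave an exact binomial interval of 0.326 to 0.635 for the ratio. Its exons overlap those of Ssrp1, a histone chaperone gene on the opposite strand, over 51 bases or 1.83% of the exon bases of P2rx3. They are also 1.36% of the exon bases of Ssrp1, whose level was far above that of P2rx3. Ssrp1 had 10799 and 10666 mean normalized reads in the control and induced groups. No strand marking is named for the library kit, so reads in the shared bases may not be told apart. The part of such reads in the P2rx3 values was not tested.

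P2rx4 (ENSMUSG00000029470, chromosome 5), a broadly expressed channel gene that lies next to P2rx7, had 1450 and 1404 normalized reads in the controls, against 1341 and 1295 in the induced libraries. The induced libraries were slightly below the controls, with a limma log2 fold change of -0.11 (SE 0.08, 95% interval -0.30 to 0.07, adjusted p = 0.473). The interval leaves out a doubling such as that of P2rx7 next to it. P2rx5 (ENSMUSG00000005950, chromosome 11) had 255 and 226 in the controls, against 249 and 185 in the induced libraries, which overlap. Its limma log2 fold change was -0.16 (95% interval -0.63 to 0.31, adjusted p = 0.694), and it was 0.05 without induced replicate 2.

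P2rx6 (ENSMUSG00000022758, chromosome 16), whose product forms channels poorly on its own, had 34.0 and 27.4 normalized reads in the controls, against 47.8 and 47.3 in the induced libraries. Both induced libraries were above both controls, and the ratio of means was 1.55 from 53 and 95 reads. The limma log2 fold change was 0.62 (SE 0.30, 95% interval -0.11 to 1.36, adjusted p = 0.325). Of the exon bases of P2rx6, 554 or 13.9% are shared with Slc7a4, a gene on the opposite strand that was not analysed here. Because no strand marking is named for the library kit, reads in these shared bases may not be told apart.

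**Figure D3:**
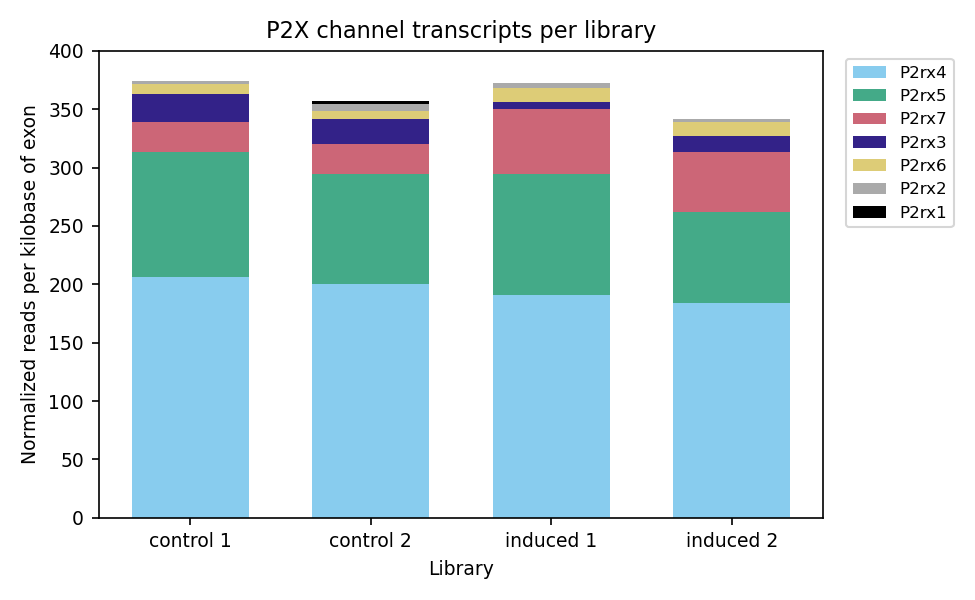
Normalized reads per kilobase of merged exon (vertical axis) of the 7 P2X channel genes, stacked for each of the 4 libraries. The red segment of P2rx7 is 25.9 and 25.8 in the controls, against 55.2 and 51.4 in the induced libraries, while the summed height runs from 341 to 374.

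Per kilobase of exon, which allows genes to be compared, P2rx4 made up most of the P2X transcript in every library. Its share of the summed P2X level was 55.2% and 56.0% in the controls, against 51.2% and 54.0% in the induced libraries. The share of P2rx7 was 6.92% and 7.22% in the controls, against 14.8% and 15.1% in the induced libraries, and that of P2rx3 was 6.39% and 5.93% against 1.7% and 4.0%. P2rx7 thus lay near P2rx3 in the controls and above it in both induced libraries. In the induced libraries the levels per kilobase were 55.2 and 51.4 for P2rx7, against 6.24 and 13.6 for P2rx3. The lower level of P2rx3 did not pass the test (limma adjusted p = 0.201). The summed P2X level was 374 and 357 in the controls, against 372 and 341 in the induced libraries. The other channel genes were scarce: P2rx2 had 6 to 16 reads per library and P2rx1 had 5 reads in control replicate 2 and 0 elsewhere. Because RNA came from whole cultures, a change in the share of cells that express a gene cannot be told apart from a change in the level per cell.

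In the controls the order of the 10 genes by level per kilobase was P2rx4 at 203 ± 4.64, P2rx5 at 101 ± 8.52, Adora2b at 99.0 ± 14.1, Entpd5 at 54.0 ± 2.59 and P2ry2 at 36.4 ± 2.90 normalized reads per kilobase (SD, n = 2). Then came P2rx7 at 25.8 ± 0.108, P2rx3 at 22.5 ± 1.94, P2rx6 at 7.68 ± 1.16, P2ry14 at 6.86 ± 2.03 and Nt5e at 1.27 ± 0.0646. The libraries of P2rx5 and Adora2b overlapped, as did those of P2rx6 and P2ry14, so these neighbours in the order did not differ beyond their spread. Counting error was not included. Genes with few reads, such as P2rx6 with 95 over the induced libraries, may therefore not differ from a neighbour without overlap. In the induced cells Entpd5 stood at rank 2 with 120 ± 20.3, its libraries overlapping those of Adora2b (103 ± 9.27), which overlapped those of P2rx5 (90.7 ± 18.8). P2rx7 followed at 53.3 ± 2.67, above P2ry2 (32.9 ± 0.274). P2rx6 (11.9 ± 0.0970) lay just below P2ry14 (12.7 ± 0.144). The libraries of P2rx3 (9.94 ± 5.23), at 6.24 and 13.6, spanned both. Lengths were merged over all annotated isoforms, which gives P2ry14 11059 exon bases, and which isoforms were used was not tested.

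Of the P2Y genes, P2ry14 (ENSMUSG00000036381, chromosome 3), the receptor gene for UDP-glucose, had 91.8 and 60.0 normalized reads in the controls, against 141 and 139 in the induced libraries. The induced libraries agreed closely and were above both controls, which differed from each other by 0.60 on the log2 scale. The ratio of means was 1.85, from 130 and 280 reads. Its limma log2 fold change of 0.91 (SE 0.26, 95% interval 0.27 to 1.55) did not pass after adjustment (adjusted p = 0.146), and it ran from 0.61 without control replicate 2 to 1.21 without control replicate 1. P2ry2 (ENSMUSG00000032860, chromosome 7), a receptor gene for ATP and UTP, had 151 and 135 in the controls, against 128 and 130 in the induced libraries. The limma log2 fold change of P2ry2 was -0.14 (95% interval -0.57 to 0.28, adjusted p = 0.701). P2ry6, a UDP receptor gene outside the 10, had 2 and 13 reads in the controls, against 12 and 17 in the induced libraries, too few to test, and the other 6 genes of the P2Y list were not analysed here.

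Adora2b (ENSMUSG00000018500, chromosome 11), the low-affinity adenosine receptor gene coupled to adenylyl cyclase, had 201 and 164 normalized reads in the controls, against 202 and 178 in the induced libraries. The groups overlapped, and the limma log2 fold change was 0.06 (95% interval -0.38 to 0.50, adjusted p = 0.881), with a sign that turned when control replicate 2 (-0.08) or induced replicate 1 (-0.03) was left out. Adora2a, the other adenosine receptor gene with a row, had 0 reads in both controls and 10 and 5 in the induced libraries and was below the filter.

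Nt5e (ENSMUSG00000032420, chromosome 9) had 9 and 10 reads in the controls, against 6 and 3 in the induced libraries, or 11.3 and 10.5 against 6.52 and 2.78 normalized reads. Both induced libraries were below both controls at counts that allow little precision. The ratio of means was 0.426, with an exact binomial interval of 0.165 to 0.960 that covers counting error only. Without the expression filter, a fit in which 0.644% of 24689 genes passed, the limma log2 fold change of Nt5e was -1.16 (SE 0.59, adjusted p = 0.490).

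The wider enzyme list set Entpd5 among its relatives. Of 20 ectonucleotidase genes 16 had a row and 6 were tested, of which Entpd5 rose, 0 fell and 5 did not pass, where 3.42% of all tested genes passed. The 1 call is that of a gene already described and says nothing further of the list. Those 5 were Entpd4, Entpd6, Entpd7, Enpp3 and Enpp4 (named after their values were seen), with log2 fold changes from -0.35 to -0.01, and the list median was -0.16 against 0.00 over all tested genes. The genes of the cell-surface NTPDases that act on extracellular ATP were near 0: Entpd1 had 0 to 2 reads per library, Entpd2 0 to 3 and Entpd3 0 to 5. Enpp2, which encodes autotaxin (named after its values were seen), had 14 and 11 reads in the controls and 0 in both induced libraries. It was below the filter, and without the filter its limma adjusted p was 0.0750, which did not pass.

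The lists of ATP release, adenosine handling and receptor signalling are read against the 3.42% of all tested genes that passed. Of 11 tested genes of ATP release 1 fell, 0 rose and 10 did not pass, with a median log2 fold change of -0.04. The gene that fell was Vdac1, a channel of the outer mitochondrial membrane, with 9558 and 9992 normalized reads in the controls, against 7309 and 7192 in the induced libraries. Its limma log2 fold change was -0.43 (SE 0.06, adjusted p = 0.0259), and the call ended when control replicate 2, induced replicate 1 or induced replicate 2 was left out (limma adjusted p = 0.0620, 0.0813 and 0.0980). The largest change of this list was that of Lrrc8d, a volume-regulated anion channel subunit (named after its values were seen), at 943 and 1141 against 2125 and 3915 normalized reads, with a limma adjusted p of 0.0553. The pannexin gene Panx1, whose hemichannel is known to act with P2X7, had 3 reads in induced replicate 1 and 0 in the other libraries.

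Of 15 tested adenosine-handling genes 0 passed (median -0.01), and the log2 fold changes of its most abundant members Ahcy, Pnp and Adk were 0.03, 0.18 and -0.16. The sign for Ahcy turned when control replicate 1 or induced replicate 2 was left out (-0.03 each). Of 11 tested partners of receptor signalling 0 passed (median 0.01), with 0.10 for Gnas, 0.04 for Gnai2 and -0.08 for Itpr3, the last of these turning to 0.01 and 0.02 without control replicate 1 and induced replicate 1. Of the same list Plcb1, a phospholipase C gene that acts after Gq-coupled receptors, was below the filter, with 5 and 5 reads in the controls against 29 and 60 in the induced libraries. Both induced libraries were above both controls, and without the filter its limma adjusted p was 0.0949. Of 5 tested ATP-gated channels 1 rose and 0 fell (median -0.11), of 2 tested P2Y genes 0 passed (median 0.38), and the 1 tested adenosine receptor gene did not pass. Over the 7 lists together 51 genes were tested, and 2 rose and 1 fell, with a median of -0.04. Over all 13276 tested genes 2.08% rose and 1.34% fell, and with so few calls these counts do not set the lists apart.

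The tested genes around P2rx7 had changes near 0. In the order of genes along chromosome 5 the 3 tested genes on each side of P2rx7 are Anapc7, Atp2a2, Ift81, P2rx4, Camkk2 and Anapc5, chosen by position after the values of P2rx7 were seen. Their log2 fold changes lay between -0.11 and 0.21, and 0 of the 6 passed the test. The sequences before the starts of the neighbouring P2rx7 and P2rx4 genes are shown to set the gene that rose beside the one that did not. Each is the 250 bases upstream of the first RefSeq start (GRCm38.p6), 5' to 3', with capitals for matches to the motifs searched. P2rx7 lies at chr5:122643677-122643926 and P2rx4 at chr5:122707294-122707543, both on the plus strand.
P2rx7: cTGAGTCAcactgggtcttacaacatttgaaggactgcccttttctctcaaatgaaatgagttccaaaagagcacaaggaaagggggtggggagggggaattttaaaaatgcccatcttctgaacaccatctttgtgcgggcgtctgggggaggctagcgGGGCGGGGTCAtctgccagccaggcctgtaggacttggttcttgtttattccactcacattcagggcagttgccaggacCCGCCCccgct
P2rx4: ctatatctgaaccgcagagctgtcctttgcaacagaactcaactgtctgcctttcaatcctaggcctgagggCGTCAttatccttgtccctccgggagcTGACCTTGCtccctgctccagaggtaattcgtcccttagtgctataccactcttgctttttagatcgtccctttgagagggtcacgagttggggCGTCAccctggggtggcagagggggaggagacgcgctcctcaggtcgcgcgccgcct

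Searched on both strands were the cyclic AMP response element TGACGTCA, its half-site TGACG, which the full element contains, the AP-1 site TGANTCA, the core of the antioxidant response element TGACNNNGC, the GC box GGGCGG, the TATA box TATAAA and the E-box CACGTG. The P2rx7 window held an AP-1 match 249 to 243 bases before the start, a motif found in 6.75% of 32851 RefSeq windows of this length. It also held GC boxes at 90 to 85 and 11 to 6 bases (32.7% of windows hold at least 1) and, overlapping the first of them, an antioxidant response core at 88 to 80 bases (10.2%). The P2rx4 window held half-sites at 178 to 174 and 57 to 53 bases (17.8%) and an antioxidant response core at 151 to 143 bases. Neither window held the full cyclic AMP element (1.55%), the TATA box (12.4%) or the E-box (6.02%). GC content was 53.6% for P2rx7 and 57.2% for P2rx4, against a median of 52.4% over all windows, with 6 and 13 CpG dinucleotides against a median of 6. Of the 10 genes 8 had a window in the table, and P2rx3 and P2rx5 did not. A match to letters is no evidence that a factor binds there, and which start was used in these cells is not known.

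Entpd5 starts head to head with Bbof1, a basal body gene on the other strand (named after its values were seen), and Bbof1 had higher values in the induced cells as well. Bbof1 had 23.9 and 15.8 normalized reads in the controls, against 47.8 and 43.6 in the induced libraries. Both induced libraries were above both controls, with a limma log2 fold change of 1.19 (SE 0.36) that did not pass (adjusted p = 0.163) and rested on 15 to 47 reads per library. The other 5 of the 6 nearest tested genes of Entpd5 lay between -0.11 and 0.15, and 0 of the 6 passed. In GRCm38 the 2 gene starts are 41 bases apart, at chr12:84409030-84409070, and those bases are shown on the minus strand, 5' to 3' toward Entpd5, with the matched half-site of the cyclic AMP element in capitals.
Entpd5: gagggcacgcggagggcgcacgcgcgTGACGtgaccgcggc
The half-site TGACG lies 15 to 11 bases before the Entpd5 start, and the stretch is 80.5% G and C with 9 CpG dinucleotides. No strand marking is named for the library kit, and GENCODE M21 shows no exon base shared by these 2 genes.

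**Figure D4:**
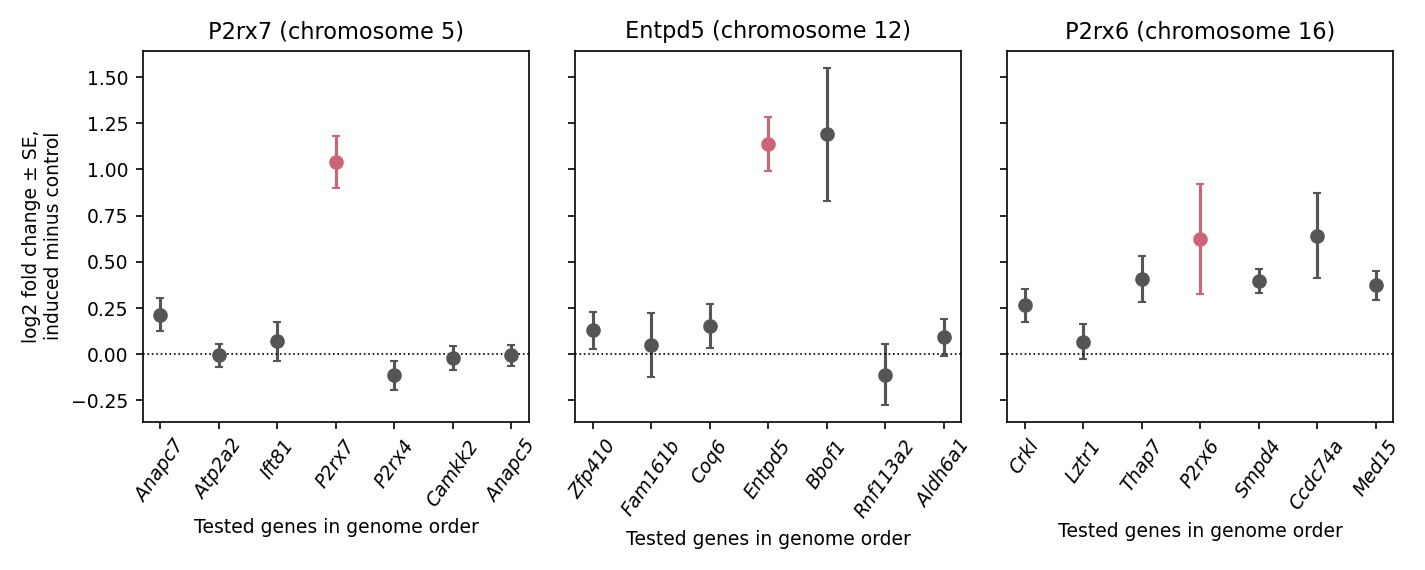
Log2 fold change with its standard error (vertical axis, induced minus control) of P2rx7, Entpd5 and P2rx6, in red, and of the 3 tested genes on each side of each, in grey, in genome order. The neighbours of P2rx7 stay near 0, Bbof1 lies beside Entpd5 at 1.19, and all 6 neighbours of P2rx6 lie above 0.

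P2rx6 sits on chromosome 16, where the tested genes as a group were shifted. Of 403 tested genes of that chromosome 84.1% had a log2 fold change above 0, against 50.4% of all tested genes, with a median of 0.31, and 85 rose and 6 fell, which is 22.6% of them. The 85 are among the 276 that rose over all tested genes, so the 2.08% and 3.42% given above include them. On each other chromosome examined 1.71% to 4.29% of tested genes passed. The medians of the chromosomes that carry the other tested genes lay between -0.02 and 0.05. The 6 nearest tested neighbours of P2rx6 lay between 0.07 and 0.64, all above 0, and Smpd4 (named after its values were seen) rose, from 1883 to 2479 mean normalized reads (limma adjusted p = 0.0402). The log2 fold change of P2rx6 was 0.62, and the part of the chromosome-wide shift in it was not tested. Around all 10 genes the 56 different neighbours included 2 that passed, Smpd4 and P2rx7 itself as the neighbour of P2rx4, a share close to the 3.42% of all tested genes that passed.

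Other genes shared the pattern of the pair that rose. By the distance between centred log2 values over the 4 libraries, a measure of likeness among 13275 other tested genes that rests on few libraries, the genes nearest to P2rx7 were Ugt1a6b, Ctla2a and Csf2rb, at distances of 0.07, 0.09 and 0.10. Csf2rb had 196 and 196 normalized reads in the controls, against 387 and 370 in the induced libraries, and Ugt1a6b belongs to a cluster with shared exons whose reads can be split among its members. The genes nearest to Entpd5 were Tgm2, Serpina3n and Aldh3a1, each at 0.12. Aldh3a1, an aldehyde dehydrogenase gene, had 1911 and 1684 in the controls, against 3696 and 4252 in the induced libraries. P2rx7 and Entpd5 themselves were 0.34 apart, since induced replicate 1 was the higher of the induced libraries for P2rx7 and the lower for Entpd5.

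**Figure D5:**
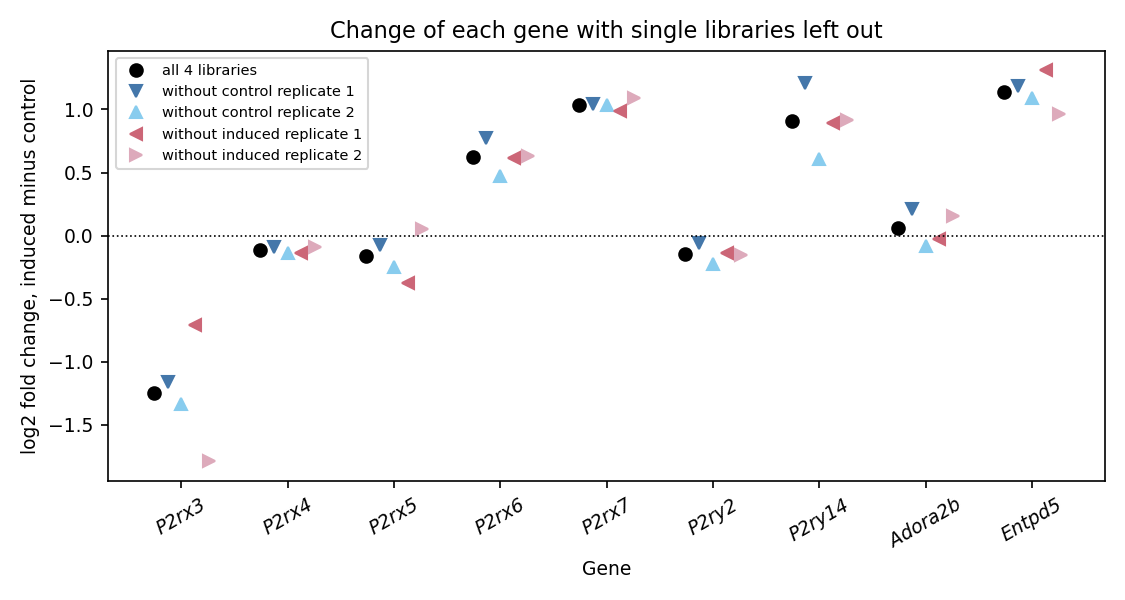
Log2 fold change (vertical axis, induced minus control) of the 9 tested genes with all 4 libraries (black) and with each library left out in turn (triangles). P2rx7 stays between 0.99 and 1.09, P2rx3 ranges from -1.79 to -0.71, and P2rx5 and Adora2b cross 0.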

How the data were processed

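RNA-seq of 4 HT-22 libraries was used, 2 per group. The authors deposited log2 values per Ensembl gene; per the submitters' processing notes HISAT, Cufflinks and mm9 were used, with no versions; for the counting tool, annotation and scaling, nothing is stated in the sources used. From the values, each deposited log2 value is log2(normalized reads + 1), and whole reads were recovered. Trizol extraction and TruSeq RNA library preparation are named in the labels' protocols.

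Deposited log2 values were tested with limma 3.58.1 (R 4.3.3), with a trend, two-sided, after keeping genes that averaged 1 CPM or more (13276 of 24689), and adjusted by Benjamini-Hochberg. The pseudocount of 1 understates changes of low genes. No replicate was a copy of another (mean chi-square per gene of 16.9 between controls and 12.9 between induced libraries). Intervals of read ratios are exact binomial at 95%. The fit was tested on simulated data.

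Members and lists were chosen with earlier results of these data known. Named are the 10 members, Pja2, genes whose exons overlap a member, each list's genes past the threshold or otherwise its 3 most abundant, and the 3 nearest genes to P2rx7 and Entpd5. Named outside this rule, after their values were seen, were P2rx1, P2rx2, P2ry6, Adora2a, Panx1, Plcb1, Lrrc8d, Bbof1 and Smpd4. The same holds for Entpd1 to Entpd4, Entpd6, Entpd7 and Enpp2 to Enpp4, and for the cell type markers named. Exon lengths, overlaps and gene order came from GENCODE M21 (GRCm38), not the authors' build. Alternatives were other filters, scalings, pseudocounts, priors, voom, a replicate block and each library left out.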

Additional observations from a re-analysis of the deposited data

How the results depend on the processing

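The limma log2 fold changes of P2rx3, P2rx4, P2rx6, P2ry2 and P2ry14 kept their direction and stayed short of the threshold under every alternative in which they were tested (12 each, 13 for P2rx4). Those of P2rx7 and Entpd5 kept their direction under all 13, and each lost its call under 5. Without the filter P2rx7 was at 1.04 and Entpd5 at 1.14 (limma adjusted p = 0.0520 for each), and without a trend in the variance prior Entpd5 was at 1.14 (0.0771). With single libraries left out P2rx7 ran from 0.99 to 1.09 and Entpd5 from 0.96 to 1.31. In the same fits P2rx5 ran from -0.37 to 0.050 (reversed without induced replicate 2), Adora2b from -0.084 to 0.21 (reversed without control replicate 2 or induced replicate 1), Ahcy from -0.032 to 0.099 (reversed without control replicate 1 or induced replicate 2) and Itpr3 from -0.18 to 0.022 (reversed without control replicate 1 or induced replicate 1). The cause of these reversals was not tested. The call of Vdac1 ended under 6 of 13 alternatives. Of the purinergic genes 2 of 9 rose, 0 without the filter, 1 without the trend and 0 to 1 with a library left out, and 0 fell in any fit. Over all genes 276 rose and 178 fell, 100 and 59 without the filter, 64 and 52 without the trend, and 113 to 204 and 78 to 136 with a library left out. Fits with fewer libraries have fewer residual degrees of freedom. With the replicate block 157 rose and 104 fell, P2rx7 and Entpd5 stayed past the threshold (limma adjusted p = 0.0456 and 0.0293), and Vdac1 did not (0.0657). Same-numbered libraries of the groups did not deviate together (r = -0.10 across 13276 genes, which are not independent), so the numbers were not taken to pair them. The voom, TMM and quantile scalings, pseudocounts of 0.5 and 10 and the filter of 5 CPM changed no call of a purinergic gene that they tested. With 2 libraries per group and under 2 CPM for P2rx3, P2rx6 and Nt5e, depth and n limit what could be detected.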
